A study of Rattus norvegicus with 12 samples.

Results

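The miR-10 and miR-196 families are microRNAs (miRNAs) encoded within the Hox gene clusters, and 5 of the 677 rat miRNAs on the array belonged to them. They were chosen by name, as rno-miR-10a-5p, rno-miR-10b, rno-miR-196a, rno-miR-196b and rno-miR-196c (written below without the species prefix), without the opposite (star) arms of their hairpins. RNA came from the soleus, a slow hindlimb muscle, of 12 male Sprague-Dawley rats at 1 year of age. The dams of 6 rats had received a control diet, and the dams of the other 6 a diet rich in saturated fat and sucrose, with gestation and suckling both covered. In the following these offspring are called control rats and high fat rats. The offspring themselves were weaned onto chow. Each rat was hybridised once, from 100 ng of total RNA, to a 1-colour Agilent rat miRNA array. The array identifiers showed 2 slides, and each slide carried 3 control and 3 high fat rats. The labels do not say whether rats shared a dam or litter, and they leave unexplained the letter A, C or H that starts each rat's code, so p-values measure the spread between these rats only. The letters were not balanced over the diets, with 3 control and 1 high fat rats under A, 2 and 2 under C, and 1 and 3 under H.

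Hox genes encode transcription factors that give cells their position along the trunk and along the limb, and the order of the genes in a cluster follows the order of their expression domains in the embryo. The miR-10 genes lie towards the anterior part of a cluster and the miR-196 genes towards its posterior part, and miR-196 is known from embryos as a hindlimb rather than a forelimb miRNA. Adult muscle and connective tissue cells keep a part of this positional pattern. Both families are known to repress Hox messages, with Hoxb8 the best known target of miR-196.

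The sequences below show how close the members are to one another, which bears on what an array probe can separate. Each mature sequence is from RefSeq on assembly GRCr8, runs 5′ to 3′, and carries its seed, bases 2 to 8, in capitals.
miR-10a-5p: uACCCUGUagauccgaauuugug
miR-10b: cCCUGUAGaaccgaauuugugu
miR-196a: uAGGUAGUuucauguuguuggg
miR-196b: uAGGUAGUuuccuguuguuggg
miR-196c: uAGGUAGUuucguguuguuggg
The 3 miR-196 members had the same seed and differed pairwise at 1 of 22 bases. Counted from 1 at the 5′ end, the change was A12C from miR-196a to miR-196b, A12G from miR-196a to miR-196c and C12G from miR-196b to miR-196c. The listed miR-10b starts 2 bases later than miR-10a-5p, so that bases 3 to 9 of miR-10a-5p are bases 1 to 7 of miR-10b, and the listed seeds differ by this shift. In the hairpin the 2 bases before the listed miR-10b are ua, as at the start of miR-10a-5p. The seeds thus differ only through the listed start, and where miR-10b starts in these rats was not tested. Over the 21 bases that could be aligned, 20 were identical and the change was U12A, counted on miR-10a-5p. How much of each signal came from a relative that differs by 1 base was not tested.

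The 5 genes lie in all 4 mammalian Hox clusters. On GRCr8 mature miR-10a-5p is at chr10:81779730-81779752 on the plus strand, between Hoxb5 and Hoxb4 of the HoxB cluster. miR-196c is in the same cluster, at chr10:81727561-81727582 on the plus strand, between Hoxb13 and Hoxb9. miR-10b is at chr3:80035886-80035907 on the plus strand, within the Hoxd4 gene of the HoxD cluster. miR-196a lies at chr7:135988900-135988921 on the plus strand, between Hoxc10 and Hoxc9 of the HoxC cluster. miR-196b lies at chr4:82661149-82661170 on the minus strand, between Hoxa9 and Hoxa10 of the HoxA cluster.

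All 5 members were detected on 12 of 12 arrays, where 162 of the 677 miRNAs were detected on every array, 193 on at least 6 and 432 on none. Values are given as scaled signal, the scanner software's total signal of a miRNA after each array was divided by its 75th percentile over those 162 miRNAs, a percentile that ran from 864 to 1911 signal units. The labelled tissue was checked on miRNA markers, and the 4 muscle miRNAs miR-1, miR-133a, miR-133b and miR-206 were detected in every rat, with a summed scaled signal between 142443 and 280572. The 2 slow fibre miRNAs, miR-499 and miR-208b, summed to between 4588 and 9249 in 11 rats and to 371 in the high fat rat H3, where miR-208b was not detected. In bulk muscle, fewer cells of a type and less of a miRNA per cell cannot be told apart, and this holds for every value that follows. Signals of different probes are not comparable as levels, so the members are compared by how they vary among the rats.

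miR-10a-5p, the member from the middle of the HoxB cluster, differed little between the diets. Its lowest, median and highest scaled signals were 861, 982 and 1205 in control rats and 784, 958 and 1130 in high fat rats. The ranges overlapped almost in full, and no rat stood apart. The means were 1015 ± 133 (SD, n = 6) and 940 ± 132 (SD, n = 6), a log2 change of -0.11 (standard error 0.14, 95% interval -0.41 to 0.18, limma adjusted p = 0.736). Exact permutation of the diet labels (two-sided, 924 ways to place them) gave p = 0.316.

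miR-10b, which lies within Hoxd4, had close means in both groups but a much wider spread in the high fat rats. Its lowest, median and highest signals were 1535, 2198 and 2573 in control rats and 1488, 1969 and 3928 in high fat rats. The highest value was that of rat H3, and the other 5 high fat rats lay below the highest control rat. The means were 2156 ± 392 (SD, n = 6) and 2258 ± 897 (SD, n = 6), a log2 change of 0.0080 (standard error 0.23, 95% interval -0.49 to 0.50, limma adjusted p = 0.988, exact permutation p = 0.974). Without H3 the log2 change was -0.17 (standard error 0.18, limma adjusted p = 0.878).

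miR-196a, from the HoxC cluster, was lower on average in high fat rats, but the difference did not pass a test. The lowest, median and highest signals were 424, 553 and 670 in control rats and 306, 426 and 566 in high fat rats. High fat rats A37, C25 and H3 lay below every control rat, and C51, H1 and H20 lay within the control range. The means were 544 ± 87.7 (SD, n = 6) and 427 ± 98.2 (SD, n = 6), a log2 change of -0.37 (standard error 0.18, 95% interval -0.75 to 0.015, limma adjusted p = 0.685, exact permutation p = 0.0606). Its unadjusted limma p of 0.0584 was the third smallest of the 193 miRNAs tested.

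miR-196b, from the HoxA cluster, was the steadiest member in control rats, with a coefficient of variation of 6.30%. The lowest, median and highest signals were 259, 278 and 308 in control rats and 83.9, 243 and 293 in high fat rats. Rat H3 was far below the other 11 rats, which ran from 196 to 308, and 3 further high fat rats lay below every control rat. The means were 280 ± 17.6 (SD, n = 6) and 220 ± 73.8 (SD, n = 6), a log2 change of -0.45 (standard error 0.26, 95% interval -1.0 to 0.11, limma adjusted p = 0.685). The exact permutation test gave p = 0.0368, with a Benjamini-Hochberg value of 0.704 over the same test of all 193 miRNAs, of which 3 (1.55%) had a p under 0.05. Without H3 the log2 change of miR-196b was -0.19 and the exact permutation p was 0.0649.

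miR-196c, the more posterior of the 2 HoxB miRNAs, was the dimmest member and separated the rats by slide. The lowest, median and highest signals were 35.6, 52.4 and 78.2 in control rats and 19.2, 44.0 and 59.0 in high fat rats. The values of both groups fell into a lower and an upper set that were the 2 slides, and rat H3 was the lowest of all. The means were 55.1 ± 20.04 (SD, n = 6) and 42.7 ± 14.2 (SD, n = 6), a log2 change of -0.37 (standard error 0.30, 95% interval -1.02 to 0.28, limma adjusted p = 0.685, exact permutation p = 0.299). Without H3 the log2 change was -0.16.

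**Figure D1:**
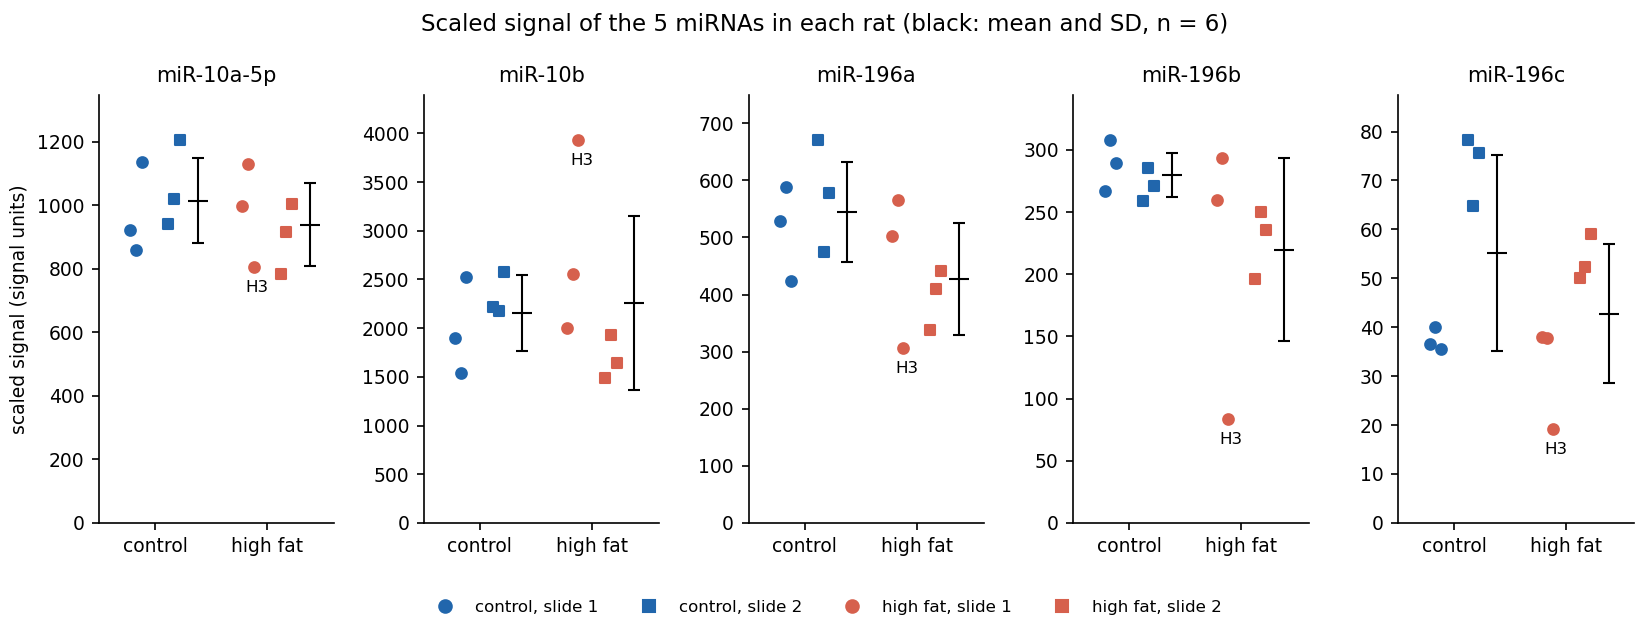
Scaled signal (signal units, linear axes from 0) of each of the 5 miRNAs in 6 control rats (blue) and 6 high fat rats (red), with circles for the first slide, squares for the second slide, and the mean and SD in black. Rat H3 was the highest of 12 rats for miR-10b and the lowest for miR-196a, miR-196b and miR-196c, and the miR-196c points of the second slide lay above all those of the first.

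Whether the dams' diet moved the Hox cluster miRNAs was asked in 1 limma fit of all 193 miRNAs detected on at least 6 arrays. After Benjamini-Hochberg adjustment 0 of the 193 (0%) passed a threshold of 0.05, and so 0 of the 5 members did. At an unadjusted p under 0.05, 2 of the 193 (1.04%) and 0 of the 5 members were called. The mean log2 change was below 0 in 4 of the 5 members, against 154 of the 193 miRNAs (79.8%), and the median over the 193 was -0.17. Relative to that median the changes were 0.055 for miR-10a-5p, 0.18 for miR-10b, -0.20 for miR-196a, -0.28 for miR-196b and -0.20 for miR-196c. Both miR-10 members thus lay above the median of all miRNAs and the 3 miR-196 members below it, and the intervals above covered the median for each of them. This order against the median was the same under all 4 other scalings, but it did not hold for every member in other settings. miR-10b lay below the median without H3 (-0.17 against -0.12) and with array weights (-0.14 against -0.12), where miR-196c, at -0.015, lay above it. Within the second slide both miR-10 members, at -0.23 and -0.47, lay below a median of -0.20. Without any scaling the median over the 193 was 0.14, the log2 changes were 0.20 for miR-10a-5p and 0.32 for miR-10b, and those of the miR-196 members lay between -0.14 and -0.056.

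The 2 slides gave different pictures of the diet difference. On the second slide the 3 high fat rats lay below the 3 control rats, with no overlap, for miR-10b, miR-196a, miR-196b and miR-196c, which is 4 of 5 members against 29 of the 193 miRNAs (15%). There miR-10b ran from 1488 to 1932 in high fat rats and from 2177 to 2573 in control rats. miR-196a ran from 338 to 442 and from 475 to 670, and miR-196c from 50.1 to 59.0 and from 64.8 to 78.2. On the first slide 0 of the 5 members separated in this way, against 17 of the 193 (8.81%). With 3 rats against 3 the exact permutation test cannot go below p = 0.1, and within the second slide the limma adjusted p of these 4 members was 0.604. The separation on the second slide depended on the scaling, as it did over all miRNAs. Without scaling, or with the percentile taken over all miRNAs, 0 of the 5 members separated, against 2 of the 193 (1.04%) in each case. After quantile normalization 1 member (miR-196a) did, against 8 of the 193 (4.15%), and after scaling to the summed signal 2 (miR-196a and miR-196c), against 5 of the 193 (2.59%).

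Between the slides the diet difference of miR-10b changed sign, from a log2 value of 0.48 on the first slide, which holds rat H3, to -0.47 on the second. The miR-196 members were lower in high fat rats on both slides. Their log2 values were -0.20 and -0.53 for miR-196a, -0.63 and -0.27 for miR-196b, and -0.30 and -0.44 for miR-196c. The median over the 193 miRNAs was itself below 0, at -0.18 within slide 1 and -0.20 within slide 2. A lower value was thus common, and miR-196a on slide 1 lay near the median. For miR-10a-5p the values were 0.0026 and -0.23. Permuted within slides over 400 assignments, the exact two-sided p was 0.025 for miR-196b, 0.040 for miR-196c and 0.070 for miR-196a, where 10 of the 193 miRNAs (5.18%) had a p under 0.05 and the Benjamini-Hochberg value of all 3 was 0.643.

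**Figure D2:**
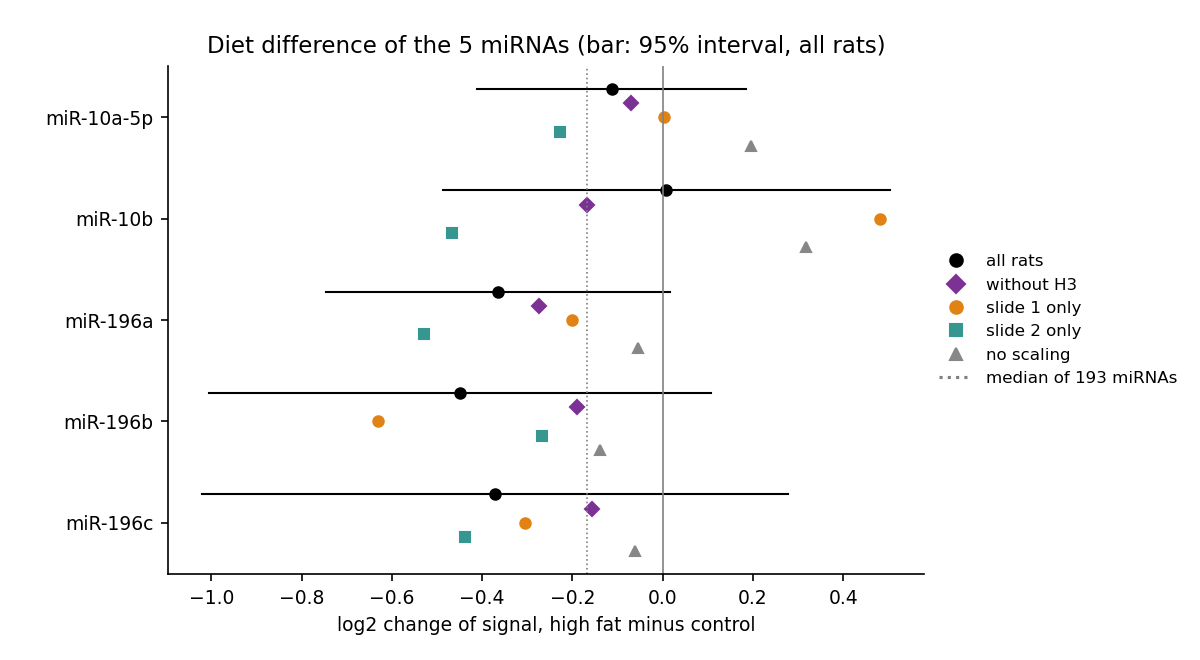
Log2 change of signal, high fat minus control, of the 5 miRNAs, with all 12 rats (black, with the 95% interval), without rat H3 (purple), on each slide alone (orange and green) and without scaling (grey triangles). All 5 intervals cover the median of the 193 miRNAs, -0.17 (dotted line), and the miR-196 points lie left of 0 in each of these settings.

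Apart from diet, miR-196c was the 1 member whose values separated by slide. It was 34.5 ± 7.62 (SD, n = 6) on the first slide, from 19.2 to 40.0, and 63.3 ± 11.8 (SD, n = 6) on the second, from 50.1 to 78.2, a log2 difference of 0.90 or 1.86-fold. Without H3, the lowest rat of the first slide, the log2 difference was 0.73. All values of the second slide lay above all those of the first, which held for 4 of the 193 miRNAs (2.07%). The other 3, named after their values were seen, were the star strands let-7a-1*, miR-126* and miR-29a*. A miRNA with the first slide wholly above the second is not in this count, nor in those under other scalings below. The log2 slide difference was 0.0043 for miR-10a-5p, -0.22 for miR-10b, -0.0042 for miR-196a and 0.10 for miR-196b, with a median over the 193 miRNAs of -0.071. Before scaling, miR-196c was listed at 18.6 to 38.7 on slide 1 and at 69.6 to 79.7 on slide 2. Without scaling 25 of the 193 miRNAs (12.95%) had the second slide above the first with no overlap. For miR-196c the second slide also stayed above the first after quantile normalization, as for 7 of the 193 (3.63%), and after scaling to the summed signal, as for 10 (5.18%). The slides of miR-196c overlapped when the percentile was taken over all miRNAs. Markers of other cells differed between the slides too. Both slow fibre markers were higher on the second slide, by log2 values of 1.14 for miR-499 and 1.16 for miR-208b, and of the 5 vessel and stroma markers miR-145 was higher by 0.61, with the others between -0.48 for miR-214 and 0.23 for miR-143. The first slide holds rat H3, where miR-499 was at 366 against 4553 to 9137 in the other rats and miR-208b was not detected. Both slow fibre slide differences thus also hold the low values of this rat. The part of these markers in the slide difference of miR-196c was not tested. Slides held 3 rats of each diet, and with the slide as a block the log2 change of miR-196c kept its value of -0.37 while its standard error fell from 0.30 to 0.17 (limma adjusted p = 0.640). With the slide as a block and H3 left out it was -0.23 (limma adjusted p = 0.854).

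**Figure D3:**
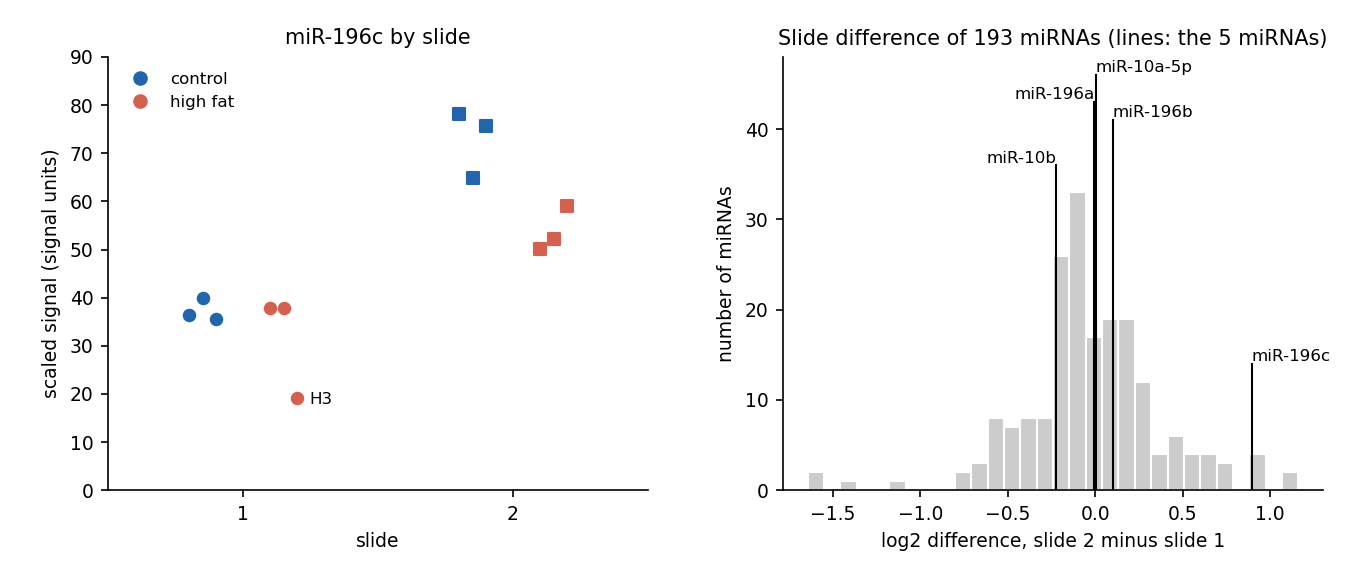
Left, scaled signal of miR-196c (signal units) in the 6 rats of each slide, control in blue and high fat in red; right, histogram of the log2 difference between slides of the 193 tested miRNAs, with lines for the 5 members. The difference of miR-196c, 0.90, lay near the upper end of the histogram, and those of the other members lay between -0.22 and 0.10.

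Rat H3, a high fat rat on the first slide, separated miR-10b from the other members. Its miR-10b signal of 3928 lay above the 1488 to 2573 of the other 11 rats, while its signals of 306 for miR-196a, 83.9 for miR-196b and 19.2 for miR-196c lay below all others, which started at 338, 196 and 35.6. Its miR-10a-5p signal of 805 was within the range of the other rats, 784 to 1205. H3 was above the other 11 rats for 28 of the 193 miRNAs (14.5%) and below them for 66 (34.2%), so that standing at the lower end was common in this rat. Against the mean of the other 11 rats, H3 was 1.95-fold higher for miR-10b, the 9th highest difference of the 162 miRNAs detected in every rat. It was 3.14-fold lower for miR-196b, the 8th lowest, and 2.57-fold lower for miR-196c, the 14th lowest. For miR-196a the log2 difference was -0.69 and for miR-10a-5p -0.29, beside a median of -0.27 over the 162. The miR-196 members were the lowest in H3 under each of the 5 scalings, none included, and miR-10b was the highest except with the percentile over all miRNAs. Under these scalings H3 was below all other rats for 28.5% to 36.8% of the 193 miRNAs and above them for 8.81% to 22.8%.

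Marker miRNAs moved in the same rat. Summed over the 5 vessel and stroma markers (miR-126, miR-143, miR-145, miR-199a-3p and miR-214) the scaled signal was 6893 in H3 and 10820 to 16543 in the other 11 rats, and that of the 2 erythrocyte markers, miR-451 and miR-144, was 3295 in H3 and 458 to 2636 in the others. The 3 leukocyte markers, miR-223, miR-142-3p and miR-150, summed to 1176 in H3 and to 1367 to 1837 in the others, with miR-150 alone of the 3 outside the range of the other rats. The sum of the 4 muscle markers, 244719, was within the range of the others, but its members moved apart. miR-1 was at 136123 in H3 and at 51591 to 106415 in the others, miR-206 was at 9354 and at 30841 to 60699, and miR-133a and miR-133b lay within the range. Of the vessel and stroma markers miR-214 was within the range of the other rats and the remaining 4 were below it, and of the erythrocyte markers miR-451 was above the range and miR-144 within it. The 5 epithelial markers were at or near the floor in all rats, and miR-200a and miR-200b were detected in H3 alone, at 12.2 and 8.82. The part of these markers, and of the slow fibre markers given above, in the member values of H3 was not tested.

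The ratio of 2 members within an array does not depend on a scaling that divides the array by 1 factor, but it can change under quantile normalization. In log2 terms miR-10b over miR-10a-5p was 1.08 ± 0.14 (SD, n = 6) in control rats and 1.20 ± 0.56 (SD, n = 6) in high fat rats, at 2.29 in H3 and between 0.71 and 1.24 in the other 11. The ratio of miR-196b over miR-10b, a posterior over a more anterior Hox miRNA, was -2.93 ± 0.33 (SD, n = 6) in control rats and -3.38 ± 1.07 (SD, n = 6) in high fat rats, at -5.55 in H3 and between -3.25 and -2.32 in the others. Its diet difference of -0.46 became -0.023 without H3. For miR-196a over miR-10a-5p, where H3 at -1.40 was within the range of the others, the diet difference was -0.25 and was -0.20 without H3, beside an SD of 0.36 in control rats and 0.15 in high fat rats. Between miR-196a and miR-196b, which have the same seed, the ratio was at -1.87 in H3 and between -1.37 and -0.55 in the others.

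Co-variation was measured over the 12 rats for the 6 pairs of miR-10a-5p, miR-10b, miR-196a and miR-196b, on log2 scaled signals with 100000 permutations and Benjamini-Hochberg adjustment over the 6. The correlation of miR-196a and miR-196b was the only one to pass, with Pearson r = 0.74 (adjusted permutation p = 0.011) and Spearman rho = 0.62 (adjusted permutation p = 0.197). Without both H3 and A37, the 2 rats farthest from the median of miR-196a, r was 0.32 and did not pass. Leaving out the extremes of 1 measure narrows its range, so this value cannot show how far the relation rests on these rats. Within the slides r was 0.89 and 0.71. It was 0.65 without H3 alone (adjusted permutation p = 0.083) and 0.75 without A37 alone (adjusted permutation p = 0.098). The miR-196 members differ pairwise at 1 of 22 bases, and the part of probes that read a relative in their r was not tested.

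miR-10a-5p and miR-10b, which sit at matching places in different clusters, had r = 0.24 (adjusted permutation p = 0.539) and rho = 0.50 over all 12 rats. Without H3 r was 0.87 and rho 0.85 over 11 rats (adjusted permutation p = 0.0041 and 0.0081). Within the slides r was -0.063 on the first, with H3, and 0.79 on the second. Without the 2 rats farthest from the median of miR-10a-5p, A37 and H10, but with H3, r was -0.071. Without A37 alone r was 0.048. H3 was 1 of 12 rats left out in turn, and the p-values without it were not adjusted for that choice. The r of the miR-10 members thus depended on the rats kept, with the largest change without H3.

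The 4 pairs across the families did not pass over 12 rats with the scaling used here. For miR-10b and miR-196b r was -0.55 and rho 0.10 (adjusted permutation p = 0.155 for r), and r was 0.53 without H3, -0.81 on slide 1 and 0.88 on slide 2. For miR-10b and miR-196a r was -0.20 over all rats, 0.40 without H3, -0.87 on slide 1 and 0.82 on slide 2. miR-10a-5p had r = 0.57 with miR-196b and 0.50 with miR-196a, with adjusted permutation p = 0.095 and 0.155. With the percentile over all miRNAs both passed, with r = 0.72 (adjusted permutation p = 0.021) and 0.83 (adjusted permutation p = 0.0018), and without the control rat C60 the pair with miR-196b passed, with r = 0.67 (adjusted permutation p = 0.013), while quantile normalization turned both r negative. Since miR-196c fell into separate sets by slide, no pooled r with another member is given for it. Within the slides its r with miR-196a was 0.93 and 0.97, with miR-196b 0.99 and 0.70, with miR-10a-5p 0.56 and 0.70, and with miR-10b -0.86 and 0.83. Within a slide of 6 rats p was adjusted over the 10 pairs of all members. Only miR-196a with miR-196c on the second slide passed (adjusted permutation p = 0.014). As a background with the scaling used here, the 13041 pairs of the 162 miRNAs had a median r of 0.22 (interquartile range -0.084 to 0.50), and 30.9% of them were below 0. With the percentile over all miRNAs r was higher for the other pairs of these 4 members too. It was 0.55 for miR-10a-5p and miR-10b and 0.32 for miR-10b and miR-196a, and no background is given for that scaling.

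**Figure D4:**
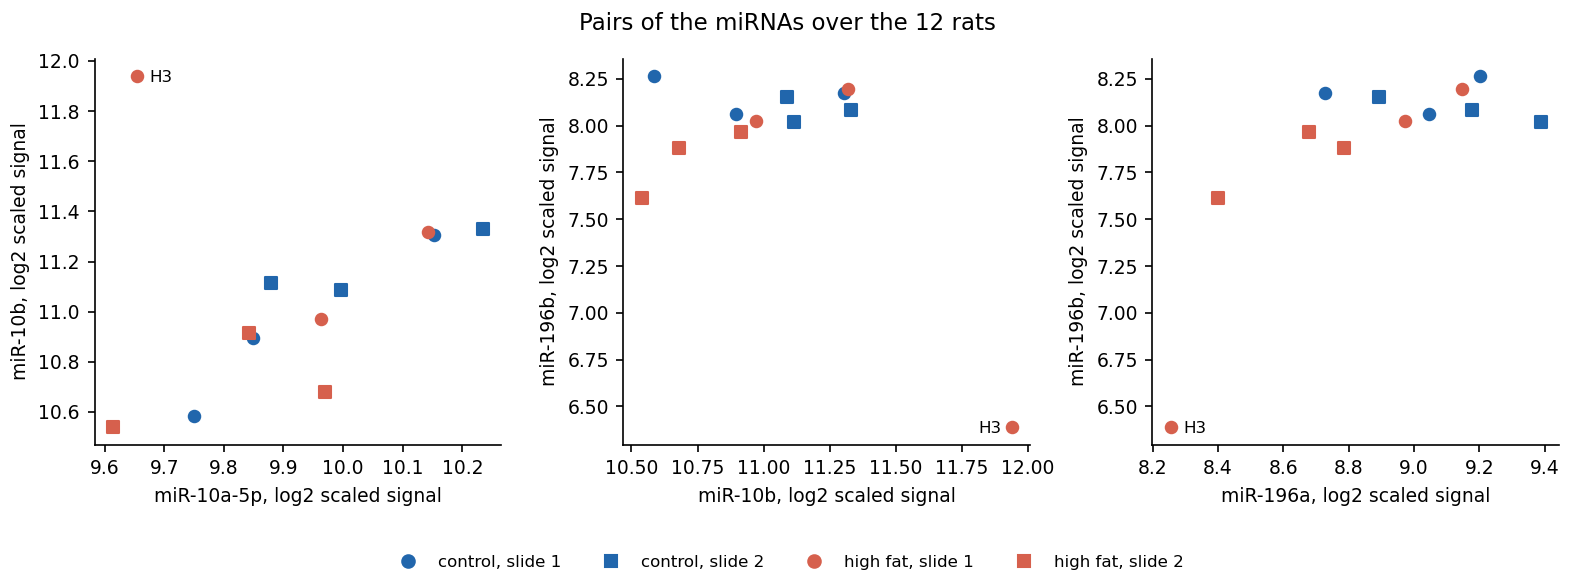
Log2 scaled signal of miR-10b against miR-10a-5p, miR-196b against miR-10b and miR-196b against miR-196a in the 12 rats, with control in blue, high fat in red, circles for the first slide and squares for the second. Rat H3 stands apart in each panel, and r of the first pair was 0.24 with it and 0.87 without it.

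The miRNAs most like each member were taken as the 5 with the highest Pearson r over the 12 rats among the 162, as a description with shared arrays and scaling. For miR-10a-5p these were let-7a, let-7f, miR-542-3p, let-7d and miR-150, with r from 0.80 to 0.74 and from 0.68 to 0.80 without H3. For miR-196a they were miR-23b, let-7d, miR-30e*, miR-128 and miR-185, with r from 0.86 to 0.81 and from 0.69 to 0.80 without H3. Those of miR-196b, namely miR-24, miR-126, miR-27b, miR-195 and miR-23a, had r from 0.95 to 0.92, which fell to between 0.41 and 0.70 without H3. Those of miR-10b, namely miR-186, miR-1224, miR-361, miR-28 and miR-872, had r from 0.87 to 0.75 and from 0.51 to 0.72 without H3. The 5 most like miR-196c were miR-126*, miR-145, miR-352, miR-22* and miR-450a, and each was itself higher on the second slide, by log2 values of 0.61 to 0.89. Since their pooled r also holds this slide difference, it is given with slide means removed, where it lay between 0.81 and 0.91. No member was among the 5 nearest of another.

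The opposite arms and the relatives of the members were read from the same fit. The 5 opposite arms, miR-10a-3p, miR-10b*, miR-196a*, miR-196b* and miR-196c*, were detected on 0 of the 12 arrays. So was miR-615, a miRNA within the Hoxc5 and Hoxc6 genes that belongs to neither family. The miR-99 and miR-100 relatives share part of the miR-10 seed, and in RefSeq miR-99b and miR-100 had bases 2 to 5, ACCC, in common with miR-10a-5p. All 3 of them were detected in every rat and 0 passed the test, with log2 changes from -0.21 to -0.17 and adjusted p of 0.685 or more. For miR-99a the means were 2663 ± 247 (SD, n = 6) in control rats and 2331 ± 460 (SD, n = 6) in high fat rats.

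The 8 let-7 and miR-98 miRNAs were read as relatives of miR-196 in the seed region. Of them only let-7a was compared by sequence, and whether the others carry the same stretch was not checked. The RefSeq sequence of let-7a is printed here with its own seed in capitals.
let-7a: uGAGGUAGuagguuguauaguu
Its bases 3 to 9, AGGUAGU, are bases 2 to 8 of the miR-196 members. All 8 were detected in every rat and 0 passed the test, with log2 changes from -0.35 for let-7b to -0.15 for miR-98 and a median of -0.22, beside -0.17 over the 193. let-7a had means of 11127 ± 890 (SD, n = 6) in control rats and 9739 ± 2070 (SD, n = 6) in high fat rats (log2 change -0.22, standard error 0.16, limma adjusted p = 0.685). The 8 summed to 31142 in H3 and to between 34288 and 58542 in the other rats, with 4 of the 8 (let-7a, let-7b, let-7c and let-7f) below all other rats in H3, beside 66 of the 193 miRNAs (34.2%).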

How the data were processed

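Soleus RNA of 12 rat offspring was measured on 1-colour miRNA arrays, and groups were read from the sample labels. The authors deposited, per array, the total signal intensity of each miRNA with its error and detection flag, background-subtracted and combined over spots by the scanner software and not normalized between arrays. Their series-wide value table held the same intensity values (0 of 8124 cells differed) and was used as an alternative. An undetected miRNA is listed at 0.1. The scanner software's version and a genome build are not given in the sources used here. After 22 control rows were left out, each array was scaled to its 75th percentile over the 162 miRNAs that all arrays detected, floored at 5.17 signal units and log2-transformed. Diets were compared with limma 3.58.1 (R 4.3.3) and Benjamini-Hochberg adjustment over 193 miRNAs, and single members by exact permutation in Python 3.11.15. The scanner's own error was 7.11% to 12.3% of a member's signal per array, and the number of arrays limits the precision. Members, lists and tests were chosen with earlier results of these data known. Named miRNAs were the members, their arms and relatives, and the 5 with the highest r to each member, besides miR-615 and cell type markers from lists, and 3 star strands named after their values were seen. Alternatives covered scaling, floor, detection filter, the value table, slide and label letter as blocks, each slide alone, array weights, the methods' t-test and each rat left out. Permutation within slides, the slide block without H3, and the scalings of values by slide and in H3 were added after the values were seen.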

Additional observations from a re-analysis of the deposited data

Results flagged for a closer look

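The miR-196b signal of rat H3, 83.9 against 196 to 293 in the other 5 high fat rats, stood apart on the log2 scale, where its gap to the next rat was 0.68 of the range of the group. This was 1 of 10 groups examined (5 members in 2 diets), where chance gives about 1 in 20, or 0.5 groups, and on the linear scale 0 of the 10 did so. In the same rat both slow fibre markers and 4 of 5 vessel and stroma markers were below, and the erythrocyte marker miR-451 was above, all other rats, and their part in this value was not tested.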

How the results depend on the processing

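The count of called miRNAs was 0 under all 27 fixed alternatives of the diet comparison and the 1 added later, with smallest adjusted p-values from 0.421 to 0.998. At an unadjusted p under 0.05 the count of 2 became 1 with miRNAs detected on all 12 arrays, 4 with scaling to the summed signal, 5 after quantile normalization, 8 with the slide as a block, 9 and 11 within the first and second slide, 12 with array weights, 5 with the slide as a block and H3 left out, and 1 to 15 with 1 rat left out (15 without H1, 7 without C25, 6 without H10). The log2 changes of miR-196a, miR-196b and miR-196c stayed below 0 under all 28, from -0.53 to -0.056, -0.63 to -0.14 and -0.48 to -0.015. That of miR-10a-5p turned positive with the percentile over all miRNAs (0.059), after quantile normalization (0.14), without scaling (0.20) and within the first slide (0.0026). That of miR-10b turned negative with the label letter as a block (-0.15), within the second slide (-0.47), with array weights (-0.14), with the slide as a block and H3 left out (-0.16), and with 1 rat left out (-0.17 without H3 to 0.11 without A37).

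With the percentile over all miRNAs r was 0.83 for miR-10a-5p and miR-196a and 0.72 for miR-10a-5p and miR-196b, both past the threshold, and 0.32 for miR-10b and miR-196a. After quantile normalization r was -0.48 for miR-10a-5p and miR-196a, -0.42 for miR-10a-5p and miR-196b, and 0.53 for miR-196a and miR-196b, which no longer passed. With scaling to the summed signal r was -0.051 for miR-10a-5p and miR-196a and 0.75 for miR-196a and miR-196b, and with group means removed it was 0.65 for the latter, in both cases past no threshold. Within the first slide r was -0.063 for miR-10a-5p and miR-10b and 0.89 for miR-196a and miR-196b. Within the second it was 0.82 for miR-10b and miR-196a, 0.88 for miR-10b and miR-196b, and 0.71 for miR-196a and miR-196b. None of these passed with adjustment over 10 pairs, while miR-196a and miR-196c did on the second slide (r = 0.97, adjusted permutation p = 0.014). Without the rats farthest from the median r was -0.071 for miR-10a-5p and miR-10b, 0.12 for miR-10b and miR-196a, 0.24 for miR-10b and miR-196b, and 0.32 for miR-196a and miR-196b. With 1 rat left out r ran from 0.048 to 0.87 for miR-10a-5p and miR-10b, from 0.53 to 0.67 for miR-10a-5p and miR-196b, from -0.48 to 0.40 for miR-10b and miR-196a, from -0.69 to 0.53 for miR-10b and miR-196b, and from 0.65 to 0.80 for miR-196a and miR-196b. In log2 terms the diet difference of the ratio miR-196a over miR-10a-5p went from -0.25 to -0.47 after quantile normalization. The cause of these changes was not tested. No paired analysis was possible because the labels give the groups no shared replicate numbers. The number of arrays limits the precision of every value.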
